A study of Homo sapiens with 6 samples.

Results

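DNA repair in these A549 cells was followed through 51 human genes, listed by name under 6 pathways: 16 of homologous recombination, 9 of the Fanconi pathway, 4 of mismatch repair, 10 of base excision repair, 6 of end joining and 6 of nucleotide excision repair. Each gene was read from the probe sets annotated with its symbol alone, and took the value of the brightest of them over the 6 arrays. This gave a value for 47 of the 51 genes, out of 18244 genes measured on the arrays, while BRCA2, RBBP8, FANCA and FANCD2 were not analysed here. A549 is an established line of human lung adenocarcinoma. The KD group (3 arrays) received a lentiviral short hairpin against MRPL35, which encodes a large-subunit protein of mitochondrial ribosomes, and the NC group (3 arrays) a lentiviral control hairpin. Both groups therefore carried a lentiviral hairpin, and only 1 hairpin against MRPL35 is named. Separate cultures are not stated for the arrays of a group, so each p-value reflects the spread among these samples alone, and that spread may be technical.

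Cells repair DNA by several routes that differ in the lesion and in the time of use. Homologous recombination copies an intact sister molecule to mend a broken chromosome and works mainly while DNA is being replicated or just after, and the Fanconi pathway removes crosslinks between the strands that stop replication forks. Mismatch repair corrects copying errors, base excision repair replaces single damaged bases, end joining seals broken ends without a template, and nucleotide excision repair cuts out bulky lesions such as those made by ultraviolet light.

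The targeted gene was checked first. MRPL35 read 6.49, 6.44 and 6.56 in KD 1, 2 and 3 and 8.16, 8.05 and 8.36 in NC 1, 2 and 3 (log2 probe-set value), and was 3.23-fold lower in KD (log2 change -1.69, SE 0.096, limma adjusted p = 3.77e-06). Arrays correlated at 0.994 or above within a group and at 0.976 to 0.980 between groups (Pearson's r over genes, not independent replicates). NC 2 stood apart from the other arrays on the second principal component, with 11.8% of the variance. For the 47 measured repair genes, calls that change without NC 2 are given beside the results. The ACTB control probes read higher at the 3' than at the 5' end, a measure of RNA quality, and this difference lay between 0.59 and 0.68 in KD and between 0.49 and 0.65 in NC (log2). For GAPDH it lay between 0.046 and 0.11 in KD and between -0.035 and 0.064 in NC, and the part of RNA quality in the results was not tested. Markers of lung epithelium and of A549 averaged 10.75 to 10.76 in the KD arrays and 10.33 to 10.37 in the NC arrays, with 5 of 10 higher in KD (KRT8, KRT18, KRT19, CDH1 and AKR1C1). The fibroblast, immune and endothelial marker lists averaged between 3.78 and 5.18 in every array, and of their 14 measured genes 2 were called, THY1 (log2 change 0.52) and CD14 (0.60), both higher in KD.

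Of the 47 repair genes, 29 were lower and 3 were higher in the knockdown cells, and 15 did not pass the test (limma, adjusted p under 0.05 over all genes). Among all genes tested 15.9% were lower and 17.6% higher. The listed genes were chosen with earlier results of these data known, so the contrast with all genes is not an independent result. Of the further repair genes described below, 34.6% were lower and 14.8% higher. The median log2 change of the repair genes was -0.47, against -0.018 for all genes. At least a halving was called for 14 repair genes, against 3.09% of all genes. All 3 KD arrays lay below all 3 NC arrays for 33 of the 47 (21.5% of all genes) and above them for 6 (23.2% of all genes). Most genes given array by array below were picked among those called without overlap between groups. For them the lack of overlap is no separate result. Without NC 2, 33 repair genes were lower and 3 higher. In bulk RNA, fewer cells expressing a gene and less of its RNA per cell cannot be told apart.

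Most of the genes that fell belong to homologous recombination, the Fanconi pathway and base excision repair. In homologous recombination 10 of 14 measured genes were lower, with a median log2 change of -0.94, and in the Fanconi pathway 7 of 7 were lower, with a median of -0.73. Base excision repair had 8 of 10 lower (median -0.52). End joining had 2 of 6 lower (median -0.37), mismatch repair 1 of 4 lower and 1 higher (median 0.017), and nucleotide excision repair 1 of 6 lower and 2 higher (median 0.14). These counts are to be read beside the 15.9% lower and 17.6% higher of all genes tested. The share lower in nucleotide excision repair, 16.7%, was near that of all genes. Limma called 0 genes higher in homologous recombination, the Fanconi pathway, base excision repair and end joining, and at an unadjusted p under 0.05 there were 0, 0, 1 (OGG1) and 1 (LIG4). Without NC 2, homologous recombination had 11 lower genes, base excision repair 9 and end joining 4, and the Fanconi pathway, mismatch repair and nucleotide excision repair had the counts above. Homologous recombination and the Fanconi pathway together had 17 of 21 lower, and the other 4 pathways 12 lower and 3 higher of 26. A difference between the shares of these pathways was not tested, since their genes share arrays and are not replicates.

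**Figure D1:**
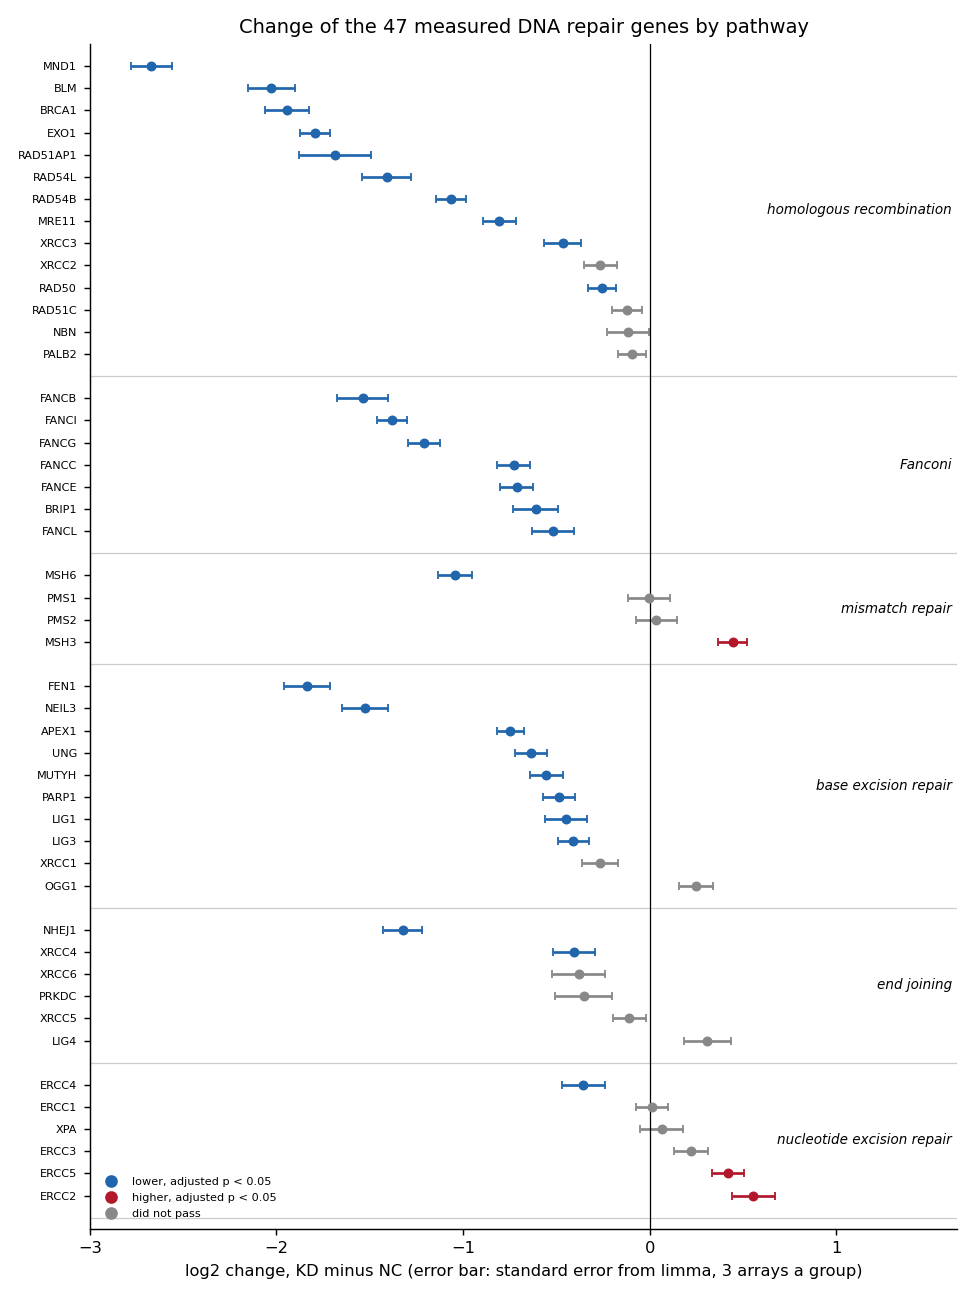
Change of each of the 47 measured repair genes, in log2 units of KD minus NC, grouped by pathway; points are the limma estimates, bars their standard errors with 3 arrays a group, and the colour gives the call at an adjusted p under 0.05. The falls reach -2.67 (MND1) in homologous recombination, while the genes of nucleotide excision repair lie between -0.35 (ERCC4) and 0.56 (ERCC2).

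The pathway means separated the groups array by array for most pathways. The homologous recombination genes averaged -1.02, -1.05 and -1.08 in KD 1, 2 and 3 relative to the NC mean (log2), whereas the NC arrays lay between -0.082 and 0.052. For the Fanconi genes the KD arrays lay between -0.99 and -0.92, and for base excision repair between -0.71 and -0.63. The mismatch repair genes averaged -0.042, -0.22 and -0.16 in KD, and since NC 2 lay at -0.098, the groups overlapped. The end joining genes averaged between -0.43 and -0.29 in KD, with NC 2 at -0.19. Nucleotide excision repair was the pathway whose mean lay above the NC mean in every KD array, by 0.15 to 0.16, with NC 3 at 0.097.

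Genes of dividing cells moved in the same direction as the listed genes of homologous recombination, the Fanconi pathway and base excision repair. The mean of the listed nucleotide excision repair genes moved the other way. For further genes of these 4 pathways, described below, the medians were -0.46, -0.30, 0.022 and 0.061 in this order. Means of the further base excision genes were -0.079 to -0.049 in KD and -0.10 to 0.090 in NC. Those of nucleotide excision were 0.017 to 0.092 in KD and -0.098 to 0.085 in NC, so both overlapped. All 16 of 16 cycling cell markers were lower in KD, with a median log2 change of -1.56, led by the ribonucleotide reductase subunit RRM2 (-2.68), the mitotic kinase CDK1 (-2.22) and cyclin A2 (CCNA2, -2.04). RRM2 read 7.26, 7.23 and 7.20 in the KD arrays and 9.99, 9.86 and 9.87 in the NC arrays. CDK1 read 8.10, 8.07 and 7.99 against 10.49, 10.07 and 10.26, and CCNA2 6.75, 6.74 and 6.68 against 8.93, 8.64 and 8.73. Absence of overlap was a condition for picking them. The part of the cycling cell markers in the fall of the repair genes was not tested.

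**Figure D2:**
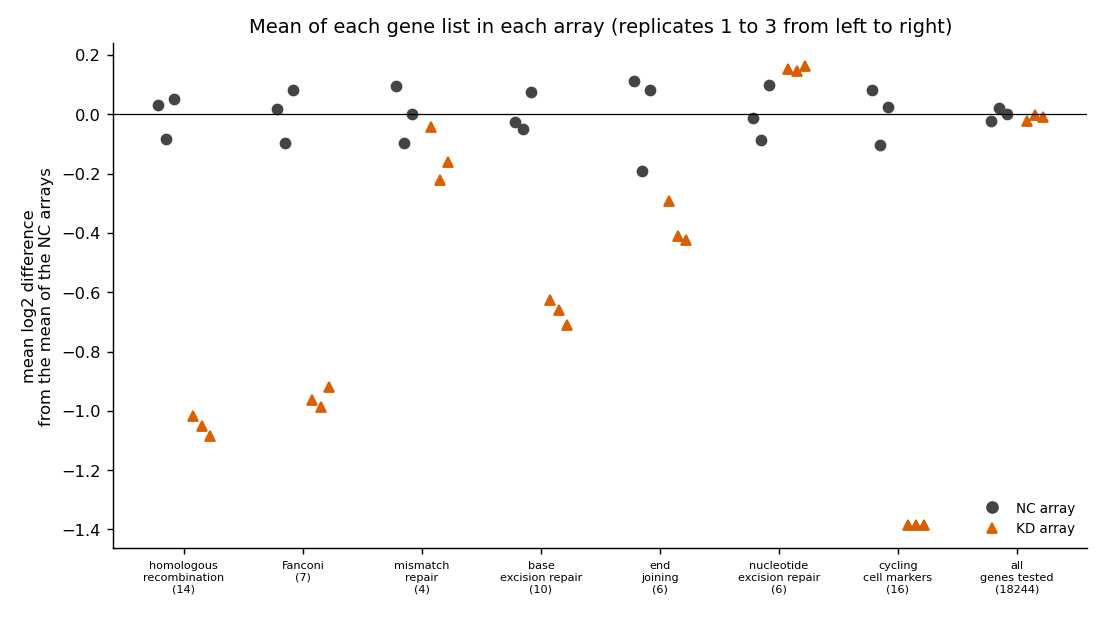
Mean of each gene list in each array, as the log2 difference from the mean of the 3 NC arrays; circles are NC and triangles KD arrays, with replicates 1 to 3 from left to right and the number of genes in brackets. The 3 KD arrays lie between -1.08 and -0.92 for homologous recombination and the Fanconi pathway, at 0.15 to 0.16 for nucleotide excision repair, and between -1.39 and -1.38 for the cycling cell markers.

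Homologous recombination begins with the resection of broken ends. MRE11, RAD50 and NBN form the complex that binds the end and starts the cut, and the nuclease EXO1 and the helicase BLM extend it. Of these 5, 4 were lower in KD. EXO1 read 5.15, 5.18 and 5.05 in KD 1, 2 and 3 and 6.98, 6.86 and 6.92 in NC 1, 2 and 3, so that the groups lay well apart, and it was 3.47-fold lower (log2 change -1.79, SE 0.079, limma adjusted p = 1.56e-06). BLM, which also undoes recombination intermediates, read 5.55, 5.38 and 5.35 in KD and 7.68, 7.19 and 7.49 in NC. Its highest KD array was below its lowest NC array, and it was 4.07-fold lower (log2 change -2.03, SE 0.13, limma adjusted p = 6.33e-06).

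Within the end-binding complex the 3 subunits gave unlike values. MRE11, the nuclease, fell by 0.81 on the log2 scale (SE 0.087, limma adjusted p = 0.000123) and RAD50, the ATPase that tethers ends, by 0.26 (SE 0.074, limma adjusted p = 0.0262). The RAD50 call was lost when any 1 of KD 1, KD 2, KD 3 or NC 3 was left out (limma adjusted p 0.0582 to 0.0909). NBN, which recruits the damage kinase ATM, had a log2 change of -0.11 (SE 0.11) and did not pass (limma adjusted p = 0.525), its NC 2 array (9.34, 8.93 and 9.28 in NC 1, 2 and 3) lying below all KD arrays. Without NC 2 the NBN value was -0.24 and passed (limma adjusted p = 0.0354).

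Strand exchange, in which a resected end invades the sister molecule, was represented by 9 measured genes, of which 6 were lower and 3 did not pass. MND1, which as a partner of PSMC3IP promotes strand exchange and is best known from meiosis, had the largest change of all 47 repair genes. It read 4.18, 3.97 and 4.01 in KD and 6.88, 6.52 and 6.78 in NC, more than 2 log2 units apart at the nearest arrays, and was 6.37-fold lower (log2 change -2.67, SE 0.11, limma adjusted p = 1.32e-06). BRCA1, the tumour suppressor that promotes resection and strand exchange, read 6.39, 6.12 and 6.51 in KD and 8.37, 8.11 and 8.36 in NC. The groups did not overlap, and BRCA1 was 3.85-fold lower (log2 change -1.94, SE 0.12, limma adjusted p = 6.19e-06).

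PALB2, the bridge between BRCA1 and BRCA2, had the smallest change of this pathway. Its arrays read 7.78, 7.71 and 7.78 in KD and 7.85, 7.90 and 7.80 in NC, which is a log2 change of -0.095 (SE 0.075, limma adjusted p = 0.408), although the 3 KD values were the 3 lowest. RAD51AP1, RAD54L and RAD54B were also at least halved in KD. RAD51AP1, which stimulates strand exchange, fell by 1.69, and the motor proteins RAD54L and RAD54B had log2 changes of -1.41 and -1.07. XRCC3, XRCC2 and RAD51C also act in strand exchange. XRCC3 fell by 0.47 (limma adjusted p = 0.00513), while XRCC2 (-0.26, limma adjusted p = 0.0512) and RAD51C (-0.12, limma adjusted p = 0.304) did not pass. The KD arrays of both lay below all NC arrays. The second probe set of XRCC2 had a log2 change of -0.65 (limma adjusted p = 0.000921 over all probe sets), and XRCC2 passed with averaged probe sets (-0.46), quantile normalization (-0.28), median centring (-0.27) or without dim genes (limma adjusted p 0.00156 to 0.0448).

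The Fanconi pathway works through a core complex that attaches ubiquitin to a clamp of FANCD2 and FANCI. All 5 measured core genes were lower, as were FANCI and the helicase BRIP1. FANCB, which holds the catalytic part of the core together, read 4.77, 4.43 and 4.73 in KD 1, 2 and 3 and 6.19, 5.94 and 6.40 in NC 1, 2 and 3. It was 2.90-fold lower without overlap (log2 change -1.54, SE 0.14, limma adjusted p = 3.99e-05). FANCG, a scaffold of the core, read 6.58, 6.70 and 6.64 in KD and 7.74, 7.93 and 7.89 in NC and was 2.31-fold lower (log2 change -1.21, SE 0.084, limma adjusted p = 1.11e-05). FANCC, of the same complex, read 5.14, 5.13 and 5.28 in KD and 5.78, 5.97 and 5.98 in NC, again without overlap, and was 1.66-fold lower (log2 change -0.73, SE 0.090, limma adjusted p = 0.000263).

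FANCL, the ubiquitin ligase of the core, changed least in the pathway and still passed. Its KD arrays read 7.85, 8.00 and 7.72 and its NC arrays 8.54, 8.20 and 8.39, so that KD 2 came close to NC 2, and it was 1.43-fold lower (log2 change -0.52, SE 0.11, limma adjusted p = 0.0062). FANCE, which joins the core to its substrate, fell by 0.71 (limma adjusted p = 0.000271), but only in its brightest probe set. FANCI itself read 7.55, 7.46 and 7.55 in KD and 8.97, 8.83 and 8.90 in NC, with little spread inside either group, and was 2.60-fold lower (log2 change -1.38, SE 0.079, limma adjusted p = 3.98e-06). BRIP1 fell by 0.61 (limma adjusted p = 0.00404), from 3.89, 3.52 and 3.93 in the NC arrays to 3.05, 3.21 and 3.26 in the KD arrays. Its mean level was low, at percentile 13.4 of all genes, and signal over background was not measured. Without dim genes, which drops FANCB and BRIP1, the Fanconi pathway had 5 lower genes.

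Mismatch repair split between its recognition subunits. MSH6, which recognises single mismatched bases, read 8.67, 8.54 and 8.49 in KD 1, 2 and 3 and 9.69, 9.47 and 9.66 in NC 1, 2 and 3. The groups were separate, and MSH6 was 2.06-fold lower (log2 change -1.04, SE 0.092, limma adjusted p = 3.99e-05). MSH3, which takes the place of MSH6 to recognise longer loops, read 8.17, 8.17 and 8.23 in KD and 7.82, 7.72 and 7.69 in NC. Here every KD array was above every NC array, and MSH3 was 1.36-fold higher (log2 change 0.45, SE 0.077, limma adjusted p = 0.00185). The other probe set of MSH3, at 0.29, did not pass (limma adjusted p = 0.23 over all probe sets).

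The MutL homologues PMS1 and PMS2, which act after recognition, did not pass. PMS1 read 6.79, 6.61 and 6.67 in KD and 6.87, 6.47 and 6.75 in NC, with the groups interleaved (log2 change -0.0033, SE 0.11, limma adjusted p = 0.988). PMS2 had a log2 change of 0.037 (SE 0.11, limma adjusted p = 0.849). It was read by 1 probe set of the kind that can hybridise to several transcripts, and PMS2 has near-identical pseudogene copies, so its value is uncertain.

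In base excision repair a glycosylase removes the damaged base, APEX1 cuts the strand, and the gap is filled and sealed, with FEN1 removing a flap where a longer patch is made. Of the 4 glycosylases 3 were lower. NEIL3, which acts on oxidised bases in single-stranded DNA and on some crosslinks, read 6.73, 6.95 and 6.47 in KD 1, 2 and 3 and 8.15, 8.33 and 8.25 in NC 1, 2 and 3. Its groups lay more than 1 log2 unit apart, and it was 2.88-fold lower (log2 change -1.53, SE 0.12, limma adjusted p = 2.42e-05). UNG, which removes uracil, read 8.88, 8.67 and 8.76 in KD and 9.45, 9.32 and 9.45 in NC and was 1.55-fold lower without overlap (log2 change -0.63, SE 0.087, limma adjusted p = 0.000474). MUTYH, which removes adenine paired with oxidised guanine, fell by 0.55 (limma adjusted p = 0.00125).

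OGG1, the glycosylase for oxidised guanine itself, had a positive value that did not pass. Its arrays read 7.80, 7.95 and 7.72 in KD and 7.47, 7.60 and 7.65 in NC, with every KD array above every NC array, for a log2 change of 0.25 (SE 0.092, limma adjusted p = 0.0713). Of its 3 other probe sets 2 were called higher, at 0.54 and 0.34.

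APEX1, the endonuclease that cuts at the abasic site, read 10.30, 10.34 and 10.28 in KD and 11.07, 11.07 and 11.01 in NC. The spread inside either group was small beside the gap, and APEX1 was 1.68-fold lower (log2 change -0.75, SE 0.073, limma adjusted p = 7.05e-05). PARP1, which senses nicks, fell by 0.48 (limma adjusted p = 0.00202), and the scaffold XRCC1 had a value of -0.27 that did not pass (limma adjusted p = 0.0639) and passed without NC 2 (-0.34, limma adjusted p = 0.0124). FEN1, which also processes the lagging strand in replication, read 8.21, 8.02 and 7.83 in KD and 9.91, 9.67 and 9.99 in NC. It had the largest change of this pathway and was 3.57-fold lower, with no overlap (log2 change -1.84, SE 0.12, limma adjusted p = 8.96e-06). The ligases LIG1, which also joins lagging-strand fragments, and LIG3 fell by 0.45 and 0.41 (limma adjusted p = 0.0119 and 0.00463). With its probe sets averaged, LIG3 was -0.14 and did not pass (limma adjusted p = 0.177), and its 4 other probe sets lay between -0.44 and 0.21.

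End joining uses the ring of XRCC5 and XRCC6 and the kinase PRKDC to hold the ends, and LIG4 with XRCC4 and NHEJ1 to seal them. The genes that hold the ends gave 0 calls of 3 with limma, and 2 at an unadjusted p under 0.05 (XRCC6 and PRKDC). This count rests on the brightest probe set: with the probe sets of a gene averaged, XRCC5, XRCC6 and PRKDC were -0.60, -0.37 and -0.35 and all 3 passed (limma adjusted p = 0.00014, 0.00922 and 0.0109). XRCC5 read 10.31, 10.36 and 10.27 in KD 1, 2 and 3 and 10.51, 10.27 and 10.47 in NC 1, 2 and 3, with NC 2 at the level of the lowest KD array (log2 change -0.11, SE 0.089, limma adjusted p = 0.426). A second probe set of XRCC5, at 8.25 in KD and 9.34 in NC, fell by 1.08 (limma adjusted p = 1.69e-05 over all probe sets). XRCC6 read 10.75, 10.82 and 10.70 in KD and 11.34, 10.78 and 11.27 in NC, and PRKDC 9.44, 9.48 and 9.30 against 10.06, 9.41 and 9.81, and in both NC 2 lay below at least 1 KD array. Their log2 changes of -0.38 and -0.35 did not pass (limma adjusted p = 0.0714 and 0.117), and without NC 2 they were -0.55 and -0.53 and passed (limma adjusted p = 0.000532 and 0.00285). Other probe sets were lower for both, by a log2 change of -0.37 for XRCC6 and of -0.43 and -0.25 for PRKDC (limma adjusted p = 0.00526, 0.00362 and 0.0445 over all probe sets).

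Among the sealing factors NHEJ1, which aligns the ends for the ligase, changed most. It read 4.96, 4.84 and 4.77 in KD and 6.06, 6.10 and 6.38 in NC, more than 1 log2 unit apart at the nearest arrays, and was 2.50-fold lower (log2 change -1.32, SE 0.10, limma adjusted p = 2.22e-05). XRCC4, the partner of the ligase, read 6.25, 5.94 and 6.32 in KD and 6.66, 6.47 and 6.59 in NC and was 1.32-fold lower (log2 change -0.40, SE 0.11, limma adjusted p = 0.0221). This call was lost without KD 2, NC 1 or NC 3 (limma adjusted p 0.0670 to 0.0796). The ligase gene LIG4 read 6.36, 5.94 and 5.93 in KD and 5.85, 5.66 and 5.80 in NC, where the KD arrays were the 3 highest, with a log2 change of 0.31 that did not pass (limma adjusted p = 0.097). The count of lower genes in end joining was 4 without NC 2 and 1 without KD 2, NC 1 or NC 3.

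Nucleotide excision repair opens the helix with the TFIIH helicases ERCC2 and ERCC3 and cuts on either side of the lesion with ERCC5 and the pair of ERCC4 and ERCC1. The 2 genes called higher in this pathway were ERCC2 and ERCC5. ERCC2 read 6.94, 7.05 and 7.00 in KD 1, 2 and 3 and 6.18, 6.53 and 6.62 in NC 1, 2 and 3. All KD arrays were above all NC arrays, and ERCC2 was 1.47-fold higher (log2 change 0.56, SE 0.12, limma adjusted p = 0.00517). Both other probe sets of ERCC2, at 0.27 and 0.22, did not pass (limma adjusted p = 0.0989 and 0.24 over all probe sets). ERCC5, the nuclease on the far side of the bubble from the ERCC4 pair, read 7.50, 7.43 and 7.57 in KD and 7.13, 6.96 and 7.14 in NC and was 1.34-fold higher without overlap (log2 change 0.42, SE 0.086, limma adjusted p = 0.00459). When probe sets that can hybridise to several transcripts were left out, the ERCC5 value was 0.16 and did not pass (limma adjusted p = 0.558). Of the other ERCC5 probe sets, that at 0.41 was called higher (limma adjusted p = 0.0229 over all probe sets). Those at 0.16 and 0.13 did not pass.

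ERCC4, the catalytic nuclease, was the 1 gene called lower in this pathway. It read 6.87, 6.82 and 6.66 in KD and 7.29, 6.90 and 7.22 in NC, with NC 2 just above KD 1, and was 1.28-fold lower (log2 change -0.35, SE 0.12, limma adjusted p = 0.0436). The call was lost without any 1 array other than NC 2 (limma adjusted p 0.0660 to 0.161), and its 4 other probe sets, between -0.32 and -0.13, did not pass. Its partner ERCC1 read 9.67, 9.80 and 9.80 in KD and 9.65, 9.77 and 9.81 in NC, with the groups interleaved (log2 change 0.013, SE 0.083, limma adjusted p = 0.933). ERCC3 (0.22, limma adjusted p = 0.0939) and the damage-verifying protein XPA (0.065, limma adjusted p = 0.74) did not pass, and ERCC3 passed without NC 3 (0.29, limma adjusted p = 0.0475). Without NC 2 the XPA value was -0.054 (limma adjusted p = 0.694).

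**Figure D3:**
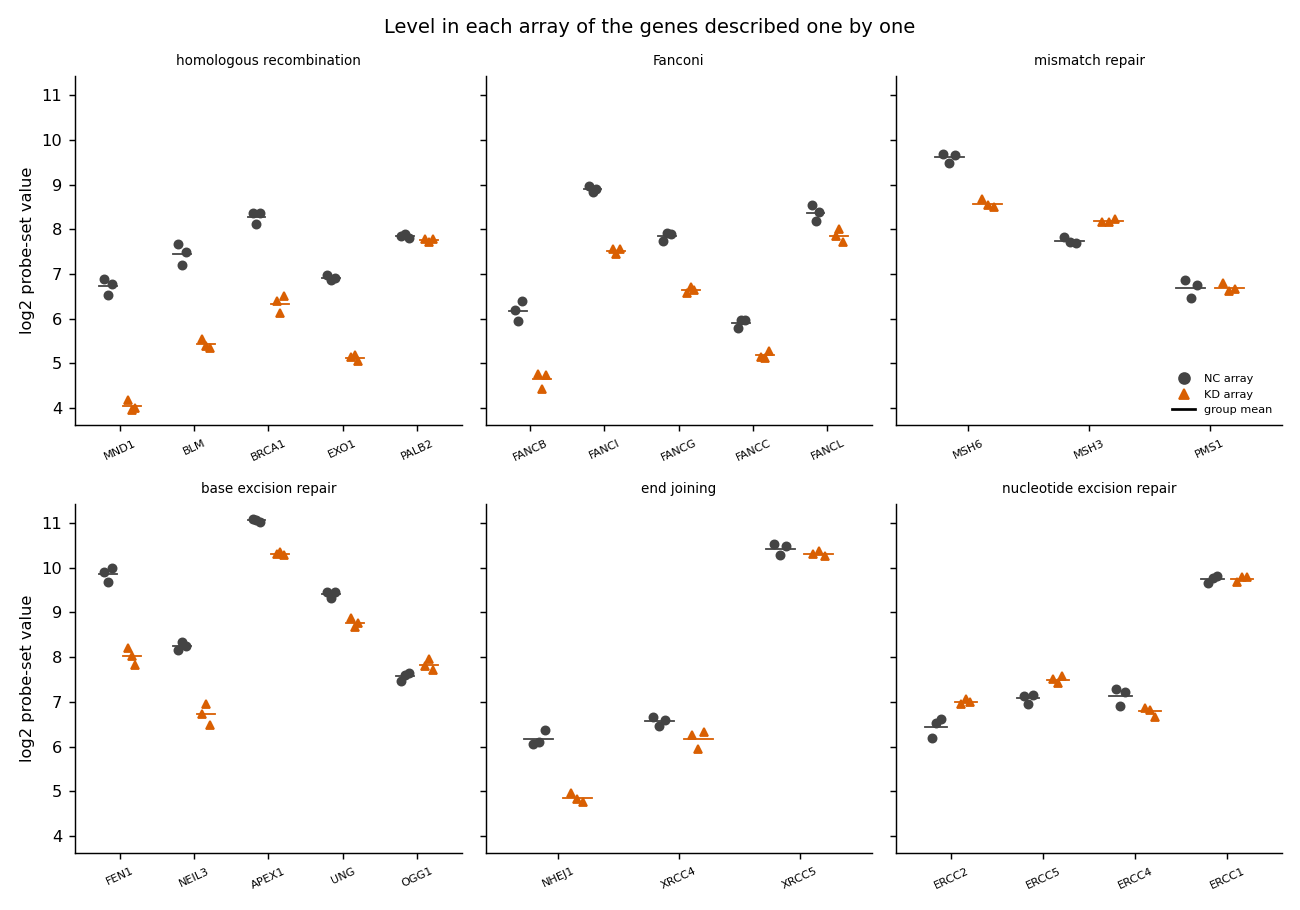
Log2 probe-set value in each array of the repair genes described array by array, with 1 panel a pathway; circles are NC arrays, triangles KD arrays and lines the group means. MND1, BLM, BRCA1, EXO1, FANCB, FANCG, FANCI, FEN1, NEIL3 and NHEJ1 sit more than 1 unit lower in KD in every array. MSH3, ERCC2 and ERCC5 sit higher in KD, and PMS1 and ERCC1 overlap.

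Other repair genes were read beside the members. Of 90 further repair genes, 81 were measured, with a median log2 change of -0.066. Of these 28 were lower (34.6%) and 12 higher (14.8%), against 15.9% and 17.6% of all genes tested. Without NC 2, 31 of the 81 were lower and 12 higher. The counts of each list below use all arrays and are to be read beside the shares of all genes. In homologous recombination 12 of 21 were lower (57.1%) and 2 higher (9.52%). The falls were led by RMI2 (-2.19) and RMI1 (-1.78), which form the dissolvasome with BLM, and by FIGNL1 (-1.65), an ATPase of homologous recombination. RMI2 read 6.67, 6.66 and 6.69 in KD 1, 2 and 3 and 8.83, 8.90 and 8.87 in NC 1, 2 and 3. RMI1 read 6.21, 6.11 and 6.10 against 8.05, 7.62 and 8.08, and FIGNL1 6.95, 6.81 and 6.88 against 8.54, 8.42 and 8.64. Absence of overlap was a condition for picking the leading genes of each list. PSMC3IP, the partner of MND1, and BARD1, that of BRCA1, were lower too, with log2 changes of -1.14 and -1.63 (limma adjusted p = 5.97e-05 and 7.82e-06); both were picked as partners after their values were seen.

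Of the other Fanconi genes 5 of 10 were lower (50%) and 1 higher (10%), against 15.9% and 17.6% of all genes. UBE2T, the enzyme that attaches ubiquitin together with FANCL, fell by 1.34 (9.06, 9.03 and 9.03 in KD, 10.35, 10.39 and 10.38 in NC). USP1, which takes the ubiquitin off again, fell by 1.13 (8.30, 8.17 and 8.28 against 9.50, 9.28 and 9.38). FAAP24, which targets the core to DNA, fell by 1.07 (5.69, 5.47 and 5.60 against 6.67, 6.57 and 6.72). The enzymes that attach and remove the mark were thus both lower (limma adjusted p = 2.78e-06 for UBE2T and 1.87e-05 for USP1).

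Of the other base excision genes 4 of 14 were lower (28.6%) and 3 higher (21.4%), against 15.9% and 17.6% of all genes. PARP2, a second nick sensor, fell by 1.11 (7.18, 7.05 and 7.26 in KD, 8.31, 8.03 and 8.50 in NC) and TDP1, which frees trapped topoisomerase from DNA, by 0.85 (7.05, 6.96 and 7.03 against 7.81, 7.83 and 7.94). NEIL1, a glycosylase of the same family as NEIL3, rose by 0.98 (6.60, 6.49 and 6.47 against 5.61, 5.46 and 5.56, limma adjusted p = 2.78e-05). NEIL1 and NEIL3 thus moved in opposite directions.

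For end joining 3 of 8 other genes were lower (37.5%), against 15.9% of all genes. POLQ, the polymerase of the alternative route that joins ends by short homologies, fell by 1.81 (6.67, 6.50 and 6.54 in KD, 8.30, 8.39 and 8.46 in NC, limma adjusted p = 1.74e-06). RIF1, which protects ends from resection, fell by 0.65 (7.61, 7.42 and 7.47 against 8.19, 8.08 and 8.17). DCLRE1C, the nuclease that trims ends, fell by 0.49 (5.97, 5.58 and 5.96 against 6.56, 6.13 and 6.28). All 3 were picked among genes called without overlap between the groups.

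In nucleotide excision repair 1 of 15 other genes was lower (6.67%) and 3 were higher (20%), against 15.9% and 17.6% of all genes. DDB1, the adaptor of a ubiquitin ligase that finds ultraviolet damage, fell by 0.68 (9.30, 9.27 and 9.26 in KD, 9.97, 9.83 and 10.05 in NC). XPC, the damage sensor of the genome-wide branch, rose by 0.57 (9.03, 8.99 and 8.95 against 8.42, 8.35 and 8.51), and so did its partner CETN2, by 0.49 (10.38, 10.35 and 10.33 against 9.83, 9.85 and 9.90). Limma adjusted p was 0.000263 for DDB1, 0.000529 for XPC and 0.000764 for CETN2.

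Translesion synthesis and direct reversal had 3 of 12 lower (25%) and 3 higher (25%), against 15.9% and 17.6% of all genes. MAD2L2, a subunit of the polymerase that extends past lesions, fell by 1.22 (7.04, 6.82 and 6.88 in KD, 8.02, 8.02 and 8.38 in NC), and RAD18, the ubiquitin ligase that calls in these polymerases, by 1.20 (5.83, 5.43 and 5.56 against 6.72, 6.82 and 6.88). MGMT, which removes alkyl groups from guanine in 1 step, rose by 0.83 (7.90, 7.99 and 8.00 against 7.12, 7.05 and 7.22, limma adjusted p = 6.77e-05). Of the further mismatch repair genes only MLH3 was measured, and it did not pass (-0.092, limma adjusted p = 0.562).

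**Figure D4:**
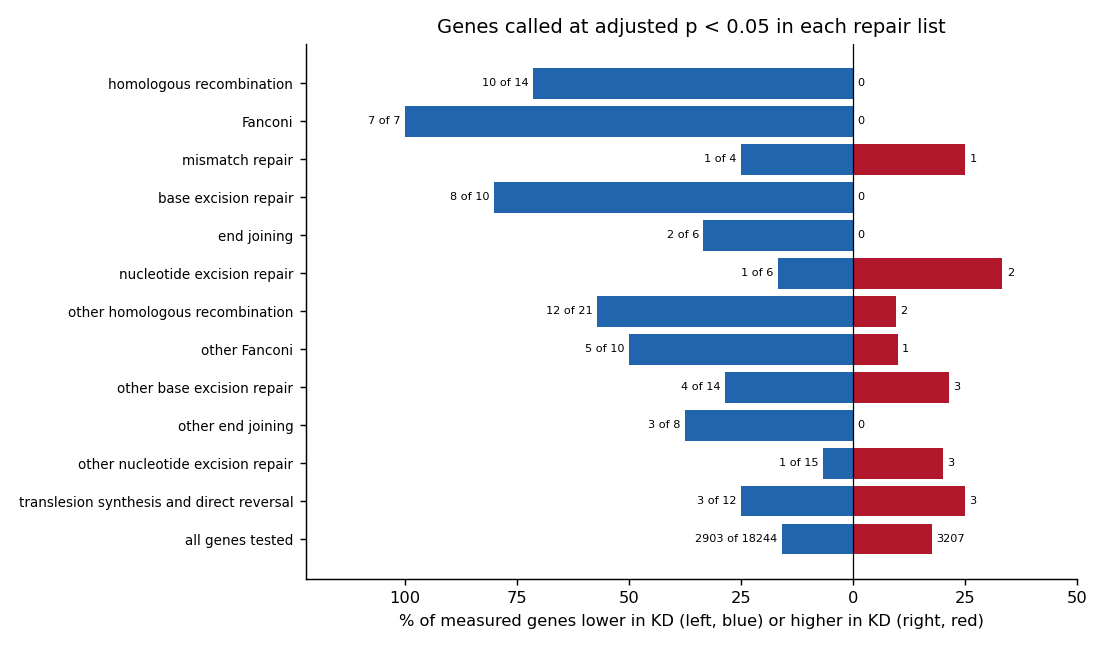
Percent of the measured genes of each repair list called lower (left) or higher (right) in KD at a limma adjusted p under 0.05, with the counts written beside the bars and all genes tested in the bottom row; the list of other mismatch repair genes, with 1 gene measured, is not drawn. The share lower is 100% for the Fanconi genes and 16.7% for nucleotide excision repair, against 15.9% of all genes.

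Genes read by several probe sets allow a check within the gene. The 47 genes had 126 probe sets, and 14 genes had a single one. Of the 79 probe sets that were not the brightest of their gene, 46 were called: 34 went the same way as the brightest and 0 the opposite way, and 12 were called where the brightest was not. Among all probe sets with 1 symbol 31% were called in either direction. A further 19 were not called where the brightest was. For BRCA1 all 5 probe sets were lower, with log2 changes between -1.94 and -0.51. For FANCE both other probe sets, at -0.10 and -0.050, did not pass. NBN had 1 probe set higher by 0.55 beside its brightest at -0.11, and RAD51C had 2 lower, by 0.43 and 0.44, beside its brightest at -0.12.

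Promoters were searched for the letters of 3 elements known from genes of dividing cells. RefSeq (GRCh38.p14) gave a promoter for 46 of the 51 genes, and the 250 bases before each start were searched on both strands. E2F-type letters (TTTCGCGC, TTTGGCGC, TTTCCCGC or TTTGCCGC, where matches on opposite strands can overlap) were held by 7 of 46 repair genes, which is 15.2%. The share was 3.40% of all genes with a promoter and 4.73% of the genes tested. Counted per promoter and not per gene, it was 2.79%. The window of 30 bases around each match is printed 5' to 3' on the strand of the gene, with the matched letters or their reverse complement in capitals, to show which repair genes hold them. The seventh of these genes, FANCA, was not analysed here and its window is not printed.
MND1, chr4:153344643-153344672, plus strand: cggcgtagtcgGCGCCAAAatcaaacgcgt
FANCC, chr9:95317863-95317892, minus strand: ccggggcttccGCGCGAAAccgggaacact
FANCC, chr9:95317737-95317766, minus strand: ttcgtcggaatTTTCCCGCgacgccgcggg
MSH3, chr5:80654536-80654565, plus strand: gcggtcaagTTTGGCGCGAAAttgtggccg
PMS2, chr7:6009131-6009160, minus strand: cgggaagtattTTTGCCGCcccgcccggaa
UNG, chr12:109098098-109098127, plus strand: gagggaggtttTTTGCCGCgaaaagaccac
LIG1, chr19:48170440-48170469, minus strand: acttcacccctTTTCCCGCcctcctcccat
MND1, FANCC, UNG and LIG1 were lower in KD, MSH3 was higher and PMS2 did not pass, so the same letters stood before genes that fell and a gene that rose. FANCC holds a match at 2 places, and in MSH3 a match on each strand overlaps the other. Among repair genes with a promoter the letters were held by 4 of 27 that were lower, 1 of 3 that were higher and 1 of 12 that were not called. Over all genes tested the shares were 8.45% of lower, 3.92% of higher and 3.99% of uncalled genes.

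The other letters searched were more common among all genes. The cell-cycle homology region (TTTGAA or TTTAAA) was held by 11 of 46 repair genes, which is 23.9%. The share was 25.5% of all genes with a promoter and 22.7% of the genes tested. CCAAT was held by 22 of 46, which is 47.8%, against 37.0% of all genes with a promoter and 40.5% of the genes tested. A match is a run of letters and not a measured site.

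Several repair genes start close to another gene on the opposite strand, a feature looked at after the values were seen. Within 1000 bases of the start there were 20 such pairs with 19 repair genes, and in 14 pairs both genes were measured. In 7 of the 14 both genes were called. In 5 of these both were lower: BRCA1 with NBR2, MRE11 with ANKRD49, MUTYH with TOE1, APEX1 with OSGEP and FEN1 with TMEM258. In 2 pairs the neighbours went opposite ways. Over all genes tested there were 1001 such pairs with both measured, of which 23.0% had both genes called, 9.09% both lower and 9.49% opposite calls. Since 29 of the 47 repair genes were lower to begin with, these counts say nothing particular about the pairs. FANCB fell by 1.54 while MOSPD2, whose start lies 352 bases away, rose by 1.18 (SE 0.12, limma adjusted p = 8.57e-05). XRCC3 fell by 0.47 while ZFYVE21, 359 bases away, rose by 1.09 (SE 0.11, limma adjusted p = 8.59e-05). FEN1 fell by 1.84 and TMEM258, at 312 bases, by 0.52 (SE 0.073, limma adjusted p = 0.000534). BRCA1 fell by 1.94, and of its neighbours NBR2 fell by 0.26 (limma adjusted p = 0.0326) while NBR1 had a value of 0.21 that did not pass (limma adjusted p = 0.0937).

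**Figure D5:**
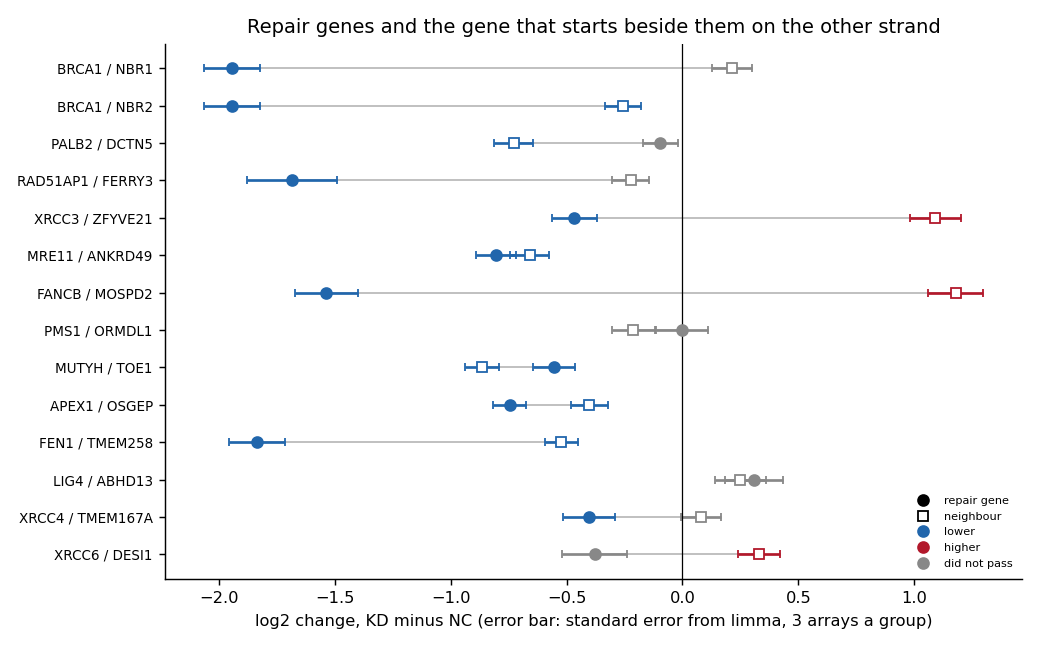
Log2 change, KD minus NC, of repair genes (filled circles) and of the gene that starts within 1000 bases of them on the other strand (open squares), for the 14 pairs with both measured; bars are limma standard errors with 3 arrays a group and the colour gives the call. FANCB and XRCC3 lie below 0 while their neighbours MOSPD2 and ZFYVE21 lie above it at 1.18 and 1.09.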

How the data were processed

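The deposited table holds the authors' log2 probe-set values for 49395 probe sets on 6 arrays. The log base was read from their range; how probes were summarised and normalized is not given in the sources at hand, and any compression of fold changes by that step is unknown. A change is relative to the middle of all genes (median log2 change -0.018). All samples were used as A549, as their characteristics say; the source names of NC replicates 2 and 3 carry another line number. Gene symbols came from the platform annotation (45278 probe sets with 1 symbol), and the brightest per gene was kept (18244 genes), with no filter on dim values. Background per probe set was not measured here.

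The test was limma's moderated linear model (version 3.58.1, R 4.3.3; lmFit, eBayes; two-sided) with group as its term, adjusted by Benjamini-Hochberg over 18244 genes at 0.05. Residual degrees of freedom were 4 and prior ones 4.67. Probe sets were tested over all 45278. In a simulation of KD against NC over 18244 genes, 40 of 67 genes with a log2 change of 0.5 were recovered (59.7%), 67 of 67 at 1 and 66 of 66 at 2, and 5 of 18044 unchanged genes were called. Far fewer genes were changed in the simulation than were called in the data (2903 lower and 3207 higher). Its adjusted threshold was therefore stricter, and its recovery is not that of the test on the data. Figures were drawn with matplotlib 3.10.9.

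Members and lists were chosen with earlier results of these data known. Values in every array are given, per pathway, for up to 4 members with the largest changes among those called without overlap between groups and for the member with the smallest change, and per list of other repair genes and cycling cell markers for up to 3 of the same kind; other values are given where a limit turns on them. The closing section gives the 16 alternatives tried: array weights, a replicate block, quantile normalization, median centring, trend and robust fitting, averaging the probe sets of each gene, a threshold of 0.01, treat against 0.2, and leaving out x and s probe sets, dim genes or each array.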

Additional observations from a re-analysis of the deposited data

How the results depend on the processing

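Of the 32 repair genes called, 22 lower and 2 higher ones (MSH3 and ERCC2) passed in the same direction under every one of the 16 alternatives in which they had a value. The 8 that did not were XRCC3, RAD50, FANCE, LIG1, LIG3, XRCC4, ERCC4 and ERCC5. Lower repair genes numbered 26 to 33 with 1 array left out and 23 to 34 under the other settings, and those of homologous recombination and the Fanconi pathway together 16 to 18 and 15 to 19. The most settings moved end joining, from 2 lower genes to 4 under quantile normalization, trend and robust fitting or array weights, to 5 when probe sets were averaged, to 1 at a threshold of 0.01 or with treat, and to between 1 and 4 with 1 array left out; 1 end joining gene (LIG4) was higher with the replicate block. Nucleotide excision repair had 0 lower genes without x and s probe sets, at 0.01 and with treat, between 0 and 1 with 1 array left out, and 1 higher without x and s probe sets or with treat. Base excision repair had 1 higher gene (OGG1) with array weights, averaged probe sets, trend and robust fitting or without dim genes. Repair genes called higher numbered 5 with array weights or without dim genes, and other repair genes called higher 6 with treat. The cause of these moves was not tested. The median change of the repair genes was -0.49 with quantile normalization, -0.51 with array weights, -0.48 without x and s probe sets, -0.45 without dim genes (which drops MND1, FANCB, BRIP1 and PMS2), and -0.53 (without NC 2) to -0.41 (without NC 3) with 1 array left out.

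Some uncalled values changed sign, and the values of the other sign did not pass. NBN was 0.20 with averaged probe sets, and its negative value passed without NC 2 (-0.24). PMS1 was 0.011 with averaged probe sets and, with 1 array left out, between -0.12 and 0.082 (0.036, 0.0068, 0.082 and 0.023 without KD 2, KD 3, NC 1 and NC 3). PMS2 was -0.0038 with array weights and between -0.071 (without KD 1) and 0.13 with 1 array left out. XPA was -0.044 with array weights and between -0.054 (without NC 2) and 0.15 with 1 array left out. ERCC1 was between -0.035 (without NC 1) and 0.056 with 1 array left out.

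Replicate numbers were not shown to pair the samples: deviations from the group means of same-numbered arrays correlated at 0.25, 0.26 and -0.096, and 3 of 6 arrays correlated best with their own number. The replicate block changed the call of LIG4 alone among repair genes (adjusted p = 0.0406) and gave 3014 lower and 3262 higher genes in all, against 2903 and 3207. Without x and s probe sets the all-gene counts were 2427 and 2828. With 3 arrays a group, a gene that did not pass may still have changed. The simulated recovery of 59.7% at a log2 change of 0.5 does not measure this. Far fewer genes were changed in the simulation than were called here, which made its adjusted threshold stricter. Signal over background was not measured here, so a limit for dim genes cannot be set.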
